A study of Caenorhabditis elegans with 2 samples.

Results

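Heat shock protein and DnaJ (J-protein) genes of Caenorhabditis elegans were examined for promoter binding by DPL-1. The members were all protein-coding genes of the WBcel235 annotation whose names start with hsp- or dnj-, which gave 51 of 19973 genes on the nuclear chromosomes, 22 hsp and 29 dnj. The binding data came from chromatin immunoprecipitation sequencing of DPL-1 in whole L4 larvae, mixed in sex, with 2 biological replicates and no second condition. The strain, OP105, carries unc119(ed3) and the transgene wgIs105, which holds dpl-1::TY1 EGFP FLAG and unc119, so the protein assayed was the tagged copy and every sample shared this background. Whole animals were used, so binding in the germ line, the intestine or any other tissue could not be told apart. No sample was heat shocked or otherwise stressed according to the labels.

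DPL-1 is the worm counterpart of DP proteins, which pair with E2F transcription factors and form part of the DREAM complex, a repressor of cell cycle and germ line genes. HSP70 proteins fold and refold clients by cycles of ATP hydrolysis, J-proteins deliver clients to them and stimulate that hydrolysis, and HSP90 acts on later folding steps of many signalling proteins. Small heat shock proteins hold unfolding clients without using ATP. Some chaperone genes are expressed in every growing cell, whereas others, such as the hsp-16 genes, are nearly silent until heat activates the transcription factor HSF-1, which binds heat shock elements made of repeated GAA units. The endoplasmic reticulum (ER) and the mitochondria have chaperones of their own, which the unfolded protein responses of these compartments can raise.

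A gene was called bound where a peak that passed the irreproducible discovery rate (IDR) procedure had its summit no more than 500 bp upstream, or 200 bp downstream, of an annotated start of the gene. The signal of a peak was the authors' own value relative to a control alignment, on a scale not given in the sources used here. DNA around the summits of 5 of the strongest members is shown because these members differ in the motifs at their summits. Each window reaches 75 bp to either side of the summit and reads 5′ to 3′ along the strand of the member, taken from the RefSeq copy of the genome (ce11). Capitals mark matches on either strand to the E2F motif, the CHR motif, GAGAG, the heat shock element or TGACGTG, whose letters are given with the motif counts.
dnj-9, chrII:4851746-4851896, forward strand: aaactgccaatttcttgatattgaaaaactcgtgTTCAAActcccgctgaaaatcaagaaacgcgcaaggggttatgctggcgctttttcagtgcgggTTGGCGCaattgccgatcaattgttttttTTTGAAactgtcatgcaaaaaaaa
dnj-10, chrIII:8630952-8631102, forward strand: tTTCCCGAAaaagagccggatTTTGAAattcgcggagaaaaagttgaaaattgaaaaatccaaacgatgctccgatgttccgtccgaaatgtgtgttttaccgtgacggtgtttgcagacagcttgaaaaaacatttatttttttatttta
hsp-90, chrV:14685692-14685842, forward strand: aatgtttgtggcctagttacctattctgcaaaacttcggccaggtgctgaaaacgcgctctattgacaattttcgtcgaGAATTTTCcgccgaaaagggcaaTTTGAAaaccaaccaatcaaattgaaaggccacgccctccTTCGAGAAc
hsp-110, chrIII:8447093-8447243, reverse strand: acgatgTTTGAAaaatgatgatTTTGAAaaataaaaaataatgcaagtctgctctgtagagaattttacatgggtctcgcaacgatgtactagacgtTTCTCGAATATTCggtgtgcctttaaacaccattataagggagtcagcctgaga
hsp-1, chrIV:17278505-17278655, forward strand: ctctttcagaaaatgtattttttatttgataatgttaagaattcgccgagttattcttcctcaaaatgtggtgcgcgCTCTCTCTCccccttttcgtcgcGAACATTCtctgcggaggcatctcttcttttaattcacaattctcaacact
The dnj-9 window holds an E2F match, dnj-10, hsp-90 and hsp-110 hold heat shock elements beside CHR matches, and hsp-1 holds a run of GAGAG matches beside a heat shock element.

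Of the 51 members, 21 were bound, at 20 distinct summits, which is 41.2% against 13.5% of all protein-coding genes. The group was chosen by name, with its share of bound promoters in these same data already known, so the share and the IDR signals are a description. Among the hsp genes 7 of 22 (31.8%) were bound, and among the dnj genes 14 of 29 (48.3%). The bound hsp genes had a median signal of 244 and the bound dnj genes of 222, both above the median of 148 over all 2701 bound genes (quartiles 81.4 and 311). The order of these shares and the closeness of the medians depend on the rule. Among genes with no other start within 1 kb, 2 of 12 hsp and 2 of 16 dnj genes were bound against 7.51% of all such genes, with medians of 265 and 1315. With a window of 200 bp upstream and 100 bp downstream the medians were 64.9 and 180. The weaker, unfiltered pooled list gave a summit in the window of 32 of the 51 members, against 35.7% of all genes. In all genes, 24.0% had such a weaker summit in both replicates and 11.2% one among the strongest peaks of both. Among the 51 members, 17 had no summit there in any list, against 10196 of all 19973 genes.

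**Figure D1:**
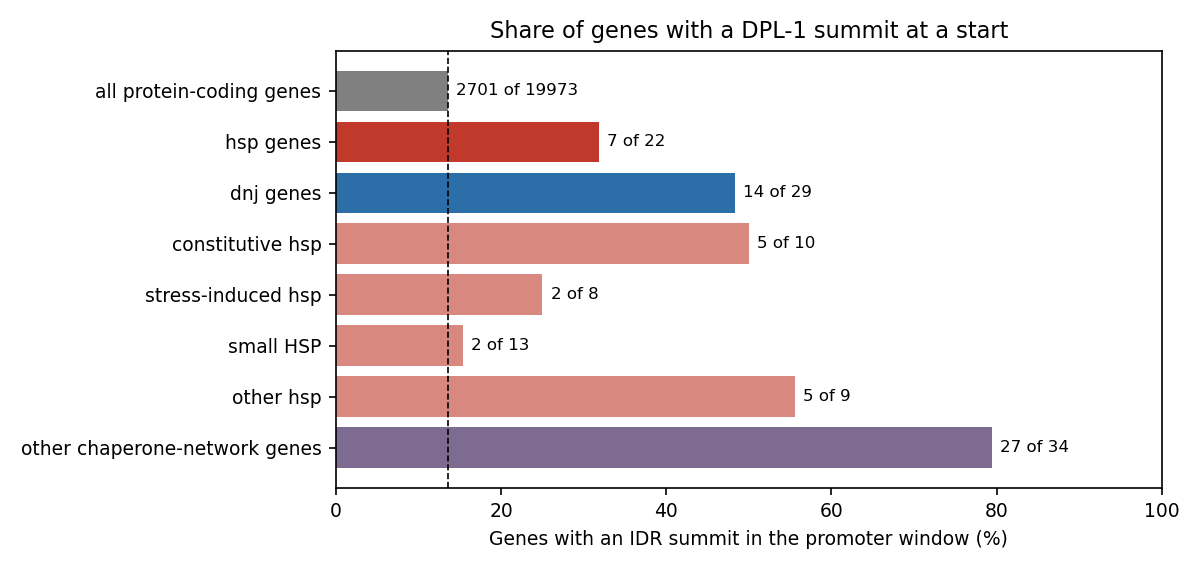
Share of genes with an IDR summit in the promoter window, in percent, for all protein-coding genes, hsp and dnj genes, classes of hsp genes and a picked list of other chaperone-network genes. The dashed line is the share over all genes, 13.5%. The small HSP bar, 2 of 13, lies close to it and the bar of the other hsp genes, 5 of 9, well above. The small HSP genes include hsp-16.1, hsp-16.11, hsp-16.48 and hsp-16.49, whose windows are repeated in the genome.

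The J-protein gene dnj-9 had by far the highest signal of any member. Its summit, 235 bp upstream of the start in intergenic DNA, ranked 10 among 3369 IDR peaks with a signal of 2028, and it was shared with no other gene. The replicates gave 879 and 1158, in replicate 1 and replicate 2. The strongest member after it, dnj-10, had a signal of 601 at 138 bp upstream, with 274 and 316 in the replicates. It encodes a mitochondrial J-protein. These 2 genes have no other protein-coding start within 1 kb, so neither summit lay close to the start of a neighbour.

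The cytosolic J-protein genes dnj-12, dnj-13 and dnj-19 were all bound, 3 of 3, with signals of 395, 233 and 388. DNJ-12 and DNJ-13 work with HSP-1 and HSP-110 in dissolving protein aggregates. In the replicates dnj-12 had 213 and 244, dnj-13 had 94.4 and 134, and dnj-19 had 177 and 207, with replicate 2 the higher for each. The summit of dnj-12 lay 425 bp upstream, the farthest of all members, and 67 bp from the start of mtx-1, which encodes a metaxin of the mitochondrial outer membrane. A second, weaker summit of 61.6 lay 27 bp upstream of dnj-12. The summit of dnj-19 was 389 bp upstream and only 7 bp from the start of nhr-47, a nuclear hormone receptor gene, whereas that of dnj-13 lay 218 bp upstream inside an intron of dhgd-1.

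Of the J-proteins of the ER, dnj-20 and dnj-29 were bound and dnj-7 and dnj-27 were not. The gene dnj-29, a counterpart of SEC63 of the translocation channel, had a signal of 138 with 83.7 and 26.6 in the replicates, the largest ratio between replicates at the IDR summit of any member. Replicate 2 had a stronger summit of 49.8 elsewhere in the dnj-29 window. Its summit lay 364 bp upstream and 164 bp from the start of ndua-2, which encodes a subunit of respiratory complex I. The gene dnj-20 had a weaker signal of 76.8, with 37.9 and 51.5, at a summit inside its own intron, and a second summit of 59.8 lay 133 bp upstream of another of its starts. Of the mitochondrial pair dnj-10 was bound and dnj-21 had no summit in any list. Of the 2 genes for vesicle J-proteins, dnj-14, which encodes the cysteine string protein of synaptic vesicles, was bound with 212 and with 73.2 and 142 in the replicates, whereas dnj-25 reached only 32.9 in the pooled list, with 20.9 and 12.

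The other J-protein genes were bound in 7 of 18 cases, dnj-9 among them. In order of signal the remaining 6 were dnj-11 with 251, dnj-28 with 246, dnj-23 with 195, dnj-22 with 180, dnj-1 with 95.4 and dnj-16 with 46.7. DNJ-11 is the counterpart of zuotin, a J-protein that sits on ribosomes. In replicate 1 and replicate 2, dnj-11 had 109 and 137, dnj-28 had 122 and 143, and dnj-22 had 90.6 and 104. These 3 were a little higher in replicate 2, whereas dnj-23 had 132 and 64.4 and dnj-1 had 56.5 and 44.5. The weakest bound member, dnj-16, had 19.8 and 21.7 and was not among the 3369 strongest peaks of either replicate.

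**Figure D2:**
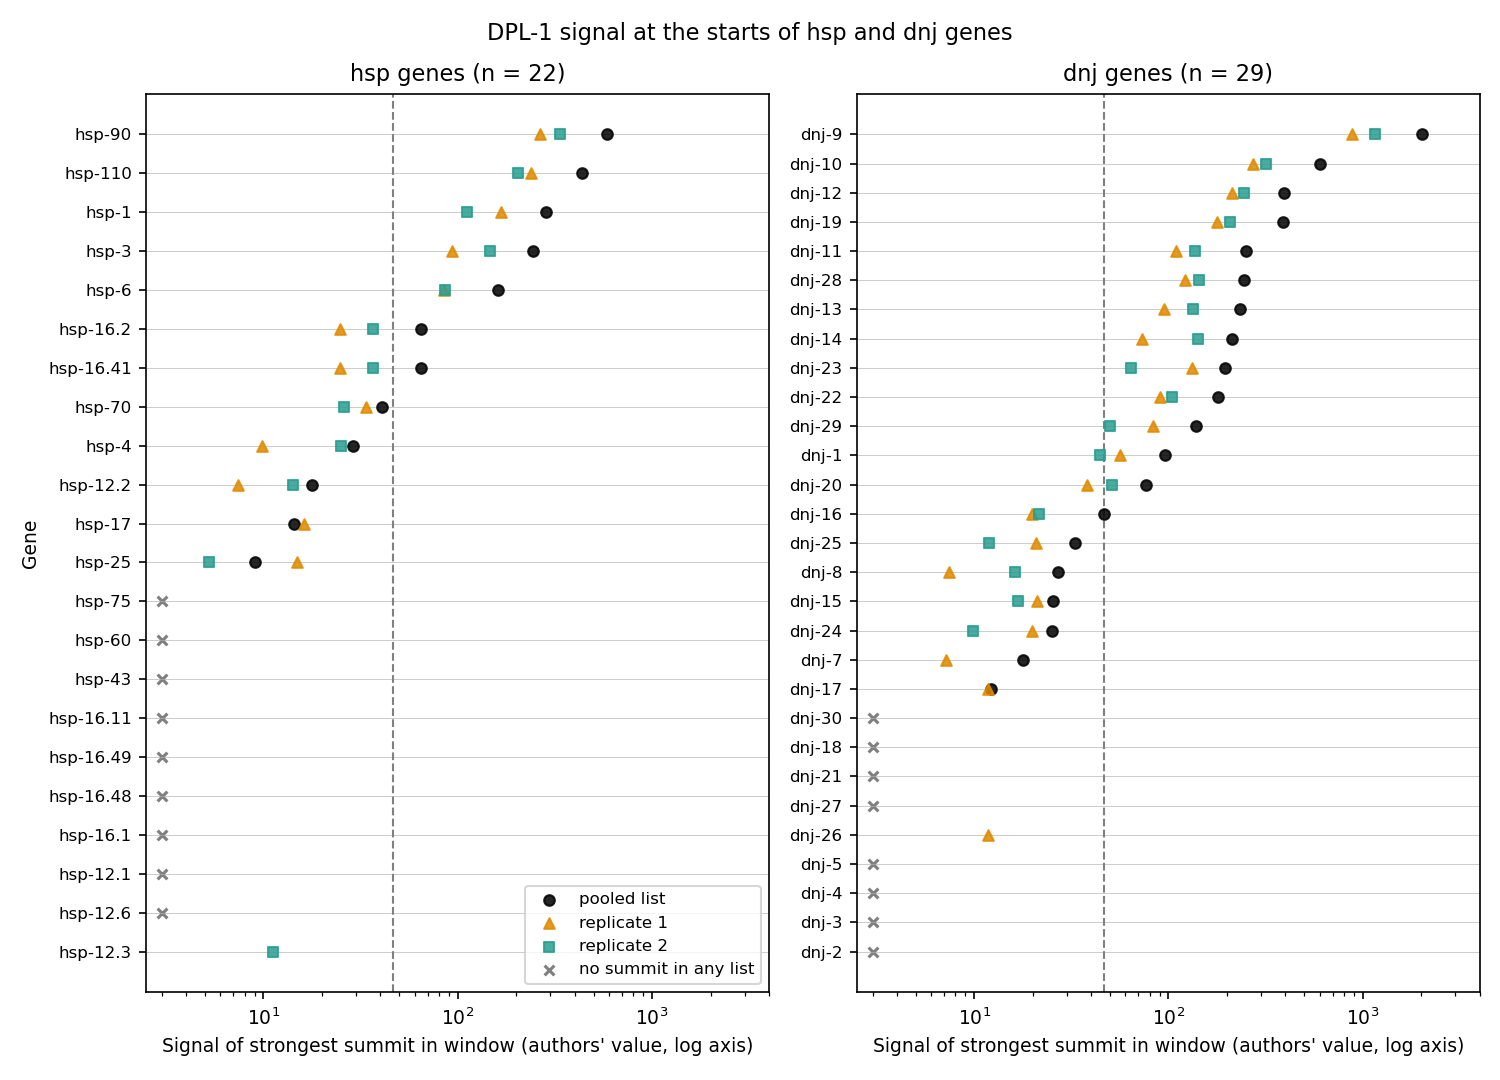
Signal of the strongest summit in the promoter window of each member (log axis, the authors' value) in the pooled list (black circles), replicate 1 (orange triangles) and replicate 2 (green squares), for 22 hsp and 29 dnj genes. The dashed line is the lowest IDR signal, 46.4, and crosses mark the 17 members with no summit in any list. The signal of dnj-9, 2028, stands apart from all others.

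The bound constitutive hsp genes were more numerous and had higher signals than the bound stress-induced ones. Of the 10 genes sorted as constitutive, 5 were bound with a median signal of 286, and all 5 were among the strongest peaks of both replicates. Of the 8 stress-induced genes, only the divergent pair hsp-16.2 and hsp-16.41 was bound, through a single summit with a signal of 64.9. The constitutive signals ran from 161, for hsp-6, to 586. The pair gives only a single value, which is below the lower quartile of 81.4 over all bound genes. With hsp-6 and hsp-60 sorted as stress-induced instead, 4 of 8 constitutive and 3 of 10 stress-induced genes were bound, and the 161 would move to the stress-induced class. Against the background of 13.5%, the 2 of 8 stress-induced genes rest on 1 summit, and the 4 hsp genes sorted in neither class, hsp-75, hsp-12.1, hsp-12.6 and hsp-17, were not bound. The sorting follows general knowledge of these genes, and no expression was measured in these samples. Class and family overlap: the 5 bound constitutive genes lie outside the small heat shock proteins and the bound pair within them. The constitutive small heat shock genes hsp-12.2, hsp-12.3, hsp-25 and hsp-43 were not bound. Nor were hsp-70 and hsp-4, the stress-induced HSP70 genes among the members. Genes of these families under other names are not members and were not sorted, so nothing is said here of their binding. The windows of hsp-16.1, hsp-16.11, hsp-16.48 and hsp-16.49, all stress-induced, are fully repeated in the genome. Of the stress-induced genes outside this set, hsp-16.2 and hsp-16.41 were bound and hsp-70 and hsp-4 were not. The lower share of bound genes in the stress-induced class therefore rests on the genes with repeated windows. Whether the repetition hides summits was not tested.

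The gene hsp-90, for the cytosolic HSP90, had the highest signal among the hsp genes, 586, with replicate values of 265 and 336, in that order. The summit was 393 bp upstream of one of its 2 annotated starts, inside an hsp-90 intron. It lay 282 bp from the start of C47E8.4, a FAM50 homolog according to RefSeq. That gene is on the other strand and starts inside hsp-90, downstream of the first hsp-90 start. The other HSP90 member, hsp-75, is the mitochondrial form and had no summit in any list. Among the 6 HSP70 genes with hsp- names 4 were bound, with hsp-110 at 436, hsp-1 at 286, hsp-3 at 244 and hsp-6 at 161. HSP-110 is an exchange factor of HSP70, HSP-1 the main cytosolic HSP70, HSP-3 an ER form (BiP) and HSP-6 the mitochondrial form, so every compartment was represented.

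In the replicates, hsp-110 had 239 and 203, and hsp-1 had 167 and 112, so both were higher in replicate 1. The ER gene hsp-3 had 93.4 and 146, and hsp-6 had 85.2 and 85.5. Their positions differed: the summit of hsp-3 lay 39 bp upstream, the closest among the members' strongest summits, whereas those of hsp-1 and hsp-6 lay 379 and 387 bp upstream. The summit of hsp-110 lay 259 bp upstream and 185 bp from the divergent start of rpn-3, a proteasome subunit gene, and that of hsp-6 lay nearer to C37H5.5, which RefSeq lists as a homolog of a nucleolar complex protein. The summit of hsp-1 was shared with no gene.

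The 2 remaining HSP70 genes are the stress-induced hsp-70, a cytosolic form, and hsp-4, the second BiP of the ER. Neither passed IDR, yet both had weaker summits in every list. The signal of hsp-70 was 40.5 in the pooled list, 33.8 in replicate 1 and 26 in replicate 2. For hsp-4 it was 29, 9.79 and 25. The 2 BiP genes thus stood at 244 for the constitutive hsp-3 and 29 for the stress-induced hsp-4. Just inside the list limit lay dnj-16 with 46.7 and the hsp-16.2 and hsp-16.41 pair with 64.9, and just outside lay hsp-70 with 40.5, dnj-25 with 32.9 and hsp-4 with 29.

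The small heat shock proteins were the class closest to the background, with 2 of 13 genes (15.4%) bound against 13.5% of all genes. Of the 9 other hsp genes 5 (55.6%) were bound. The 13 include hsp-16.1, hsp-16.11, hsp-16.48 and hsp-16.49, whose windows are repeated in the genome, and the 2 bound genes share 1 summit. The summit between hsp-16.2 and hsp-16.41 had 24.8 in replicate 1 and 36.5 in replicate 2, and it was among the strongest 3369 peaks only in replicate 2. It lay 140 bp upstream of hsp-16.2 and 81 bp upstream of hsp-16.41. The constitutive hsp-12.2 and hsp-25 had only weak pooled summits of 17.8 and 9.09, and hsp-43 had none. The unsorted hsp-17 had 14.4, and hsp-12.3 had a summit of 11.2 in replicate 2 alone.

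The other 4 hsp-16 genes, hsp-16.1, hsp-16.48 and their copies hsp-16.11 and hsp-16.49, had no summit in any list. The Ensembl annotation names each copy like its original, and the RefSeq symbols were used to tell them apart. All 652 words of 50 bases in the window of each of these 4 genes occur more than once in the genome (100%), and the pairs lie in an inverted repeat with an identical run of 1881 bp. No such repeated word lies in the windows of hsp-16.2 and hsp-16.41. A read from the duplicated windows has no unique place, and the treatment of such reads in the authors' alignment was not available from the labels or file listings. Whether the absence of summits at these 4 genes reflects this was not tested. The gap between hsp-16.2 and hsp-16.41 and the middle of that between hsp-16.1 and hsp-16.48 are shown, forward strand, because they hold the same kind of heat shock elements with and without a summit.
hsp-16.2/hsp-16.41, chrV:1804958-1805177, forward strand: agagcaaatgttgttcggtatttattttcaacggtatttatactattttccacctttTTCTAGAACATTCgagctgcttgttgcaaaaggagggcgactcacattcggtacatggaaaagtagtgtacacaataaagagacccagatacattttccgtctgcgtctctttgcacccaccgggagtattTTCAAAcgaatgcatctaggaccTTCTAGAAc
hsp-16.1/hsp-16.48, chrV:9087831-9088080, forward strand: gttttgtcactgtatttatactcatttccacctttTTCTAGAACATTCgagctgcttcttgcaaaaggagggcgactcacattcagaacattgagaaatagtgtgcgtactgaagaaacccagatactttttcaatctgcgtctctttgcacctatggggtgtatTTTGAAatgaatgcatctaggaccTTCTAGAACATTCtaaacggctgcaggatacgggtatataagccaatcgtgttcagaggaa
The first gap is 220 bp long with 3 matches to the heat shock dimer and 1 to the trimer. The second is 348 bp long with 4 and 2. The end of the first gap cuts its last element, and within 100 bp of the hsp-16.2 summit, which reaches past that end, there were also 4 and 2. The longest run that both gaps share is 33 bp.

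The mitochondrial chaperonin gene hsp-60 was not bound by the rule, although a strong summit lay just beyond its window. That summit, on chrIII:1618978-1619292 (ce11), had a signal of 604 and rank 251, above hsp-90, with 312 in replicate 1 and 297 in replicate 2. It lay 590 bp upstream of hsp-60 and 223 bp upstream of the divergent gene Y22D7AL.10, and the starts of these genes are 813 bp apart. RefSeq lists the product of Y22D7AL.10 as the small mitochondrial heat shock protein that caps the HSP60 ring, so the 2 parts of the chaperonin are encoded on either side of it. Its DNA is shown because it carries 2 E2F matches, on the forward strand within 75 bp of the summit.
Y22D7AL.10/hsp-60, chrIII:1619077-1619227, forward strand: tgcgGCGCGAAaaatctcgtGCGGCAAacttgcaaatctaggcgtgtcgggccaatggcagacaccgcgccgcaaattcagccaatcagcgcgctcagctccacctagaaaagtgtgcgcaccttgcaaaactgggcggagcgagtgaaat
The next members beyond the upstream edge were dnj-5 with a summit 808 bp upstream (73.2) and dnj-27 at 1033 bp upstream (53.3), while the farthest summit inside was that of dnj-12 at 425 bp.

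With every window counted, the members' summits lay farther upstream, in the median, than those of all bound genes. The median distance from summit to start was 254 bp upstream, from 39 to 425 bp, against 173 bp upstream over all bound genes. The summit lay more than 200 bp upstream in 13 of the 21 bound members (61.9%) and in 43.5% of all bound genes. The direction turned when each summit counted for its nearest start only, with medians of 121 bp upstream over 12 members and 153 bp over all genes. Among genes with no other start within 1 kb the medians were 186.5 bp over 4 members and 178.5 bp over all. Distances are to the nearest start whose window holds the summit, and measured so, every strongest summit of a member lay upstream. The summits of dnj-16, dnj-20 and hsp-90, which have 2 starts each, lay within introns of these genes, so they are upstream of an alternative start and downstream of the first.

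**Figure D3:**
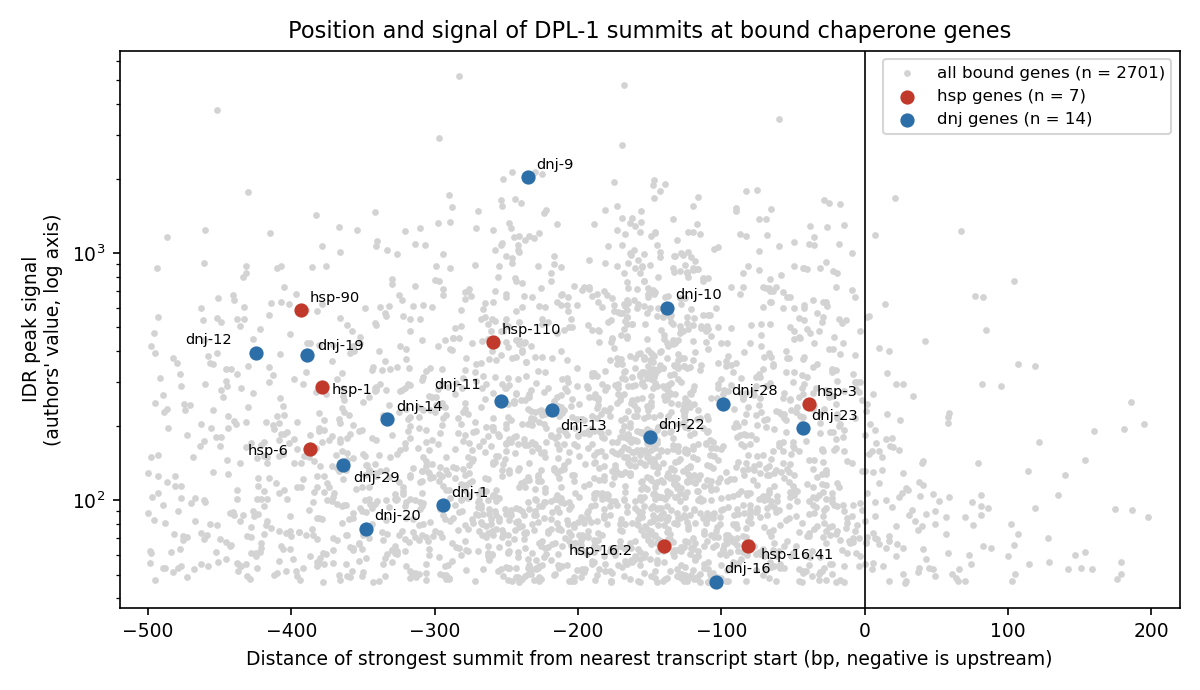
Signal of the strongest IDR summit in the window (log axis, the authors' value) against its distance from the nearest transcript start in bp, for 7 bound hsp genes (red), 14 bound dnj genes (blue) and all 2701 bound genes (grey). All members lie upstream of the start from which they are measured, and dnj-9, at 2028, is the highest.

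Many of these upstream summits lie between divergent gene pairs. Of the 21 bound members, 13 (61.9%) shared their summit with the window of another gene, through 12 distinct summits, against 46.8% of all bound genes. All 13 lay in pairs that were divergent when read from the starts nearest to the summit. For hsp-90 this is an alternative start, since C47E8.4 starts inside hsp-90, downstream of the first hsp-90 start. For 10 of the 13 the start of the partner was nearer to the summit than that of the member. The exceptions were dnj-1, dnj-28 and hsp-16.41. Among the strongest members, the partner of dnj-11 was F38A5.2 and that of dnj-28 was supr-1, and mtx-1, nhr-47, rpn-3 and C47E8.4 are described above. The summit cannot be assigned to 1 gene of a pair from these data.

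The other 8 bound members, dnj-9, dnj-10, dnj-13, dnj-16, dnj-20, dnj-23, hsp-1 and hsp-3, had a summit of their own. Among members with no other protein-coding start within 1 kb, only hsp-1, hsp-3, dnj-9 and dnj-10 were bound, 4 of 28, against 7.51% of all such genes. Among members with such a neighbouring start 17 of 23 were bound, against 31.1% of all such genes. Whether the summit acts on the chaperone gene or on its neighbour was not tested.

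A further group of members lies close behind another gene on the same strand, the arrangement of worm operons, in which a single promoter can serve several genes. With a limit of 300 bp between the genes, chosen after the values were seen, 9 members fell in this group, and none of them was bound. This count depends on the limit, since the bound genes dnj-10 and dnj-9 lie 388 and 394 bp behind a gene on their strand, and only 8.19% of all genes within the limit were bound. The 9 members were dnj-2, dnj-3, dnj-4, dnj-8, dnj-15, dnj-18, dnj-21, dnj-30 and hsp-75. For 6 of them the first gene of the run was itself bound. These first genes were ndus-8 at 232 ahead of hsp-75, erm-1 at 206 ahead of dnj-4, and rnp-2 at 133 ahead of dnj-15. The others were B0035.3 at 119 ahead of dnj-2, Y71F9B.6 at 73.5 ahead of dnj-30, and epg-5 at 49.4 ahead of dnj-8. The share of bound first genes over all such runs was not counted, so the 6 have no background beside them. Runs were read from positions only, and no list of operons was used.

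The replicates were close to one another at the members. All 21 bound members had a summit within 100 bp of the IDR summit in both replicates, as did 2567 of all 2701 bound genes. The 2 replicate signals at the members had a Spearman coefficient of 0.88 and, on the log10 scale, a Pearson coefficient of 0.90. Over all bound genes these coefficients were both 0.87. They are taken across genes within the same 2 libraries, so these are descriptions. Replicate 2 was higher at 16 of the 21 members, with a median log2 ratio of 0.22. Over all bound genes it was higher at 1538 of 2567, with a median of 0.16, so the tilt is not particular to the members. The extreme among the members was dnj-29 at -1.65 for the replicate summits nearest to the IDR summit. Among the strongest peaks of both replicates were 18 of the 21 members (85.7%), against 82.6% of all bound genes, and the 3 others were dnj-16 and the pair hsp-16.2 and hsp-16.41.

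**Figure D4:**
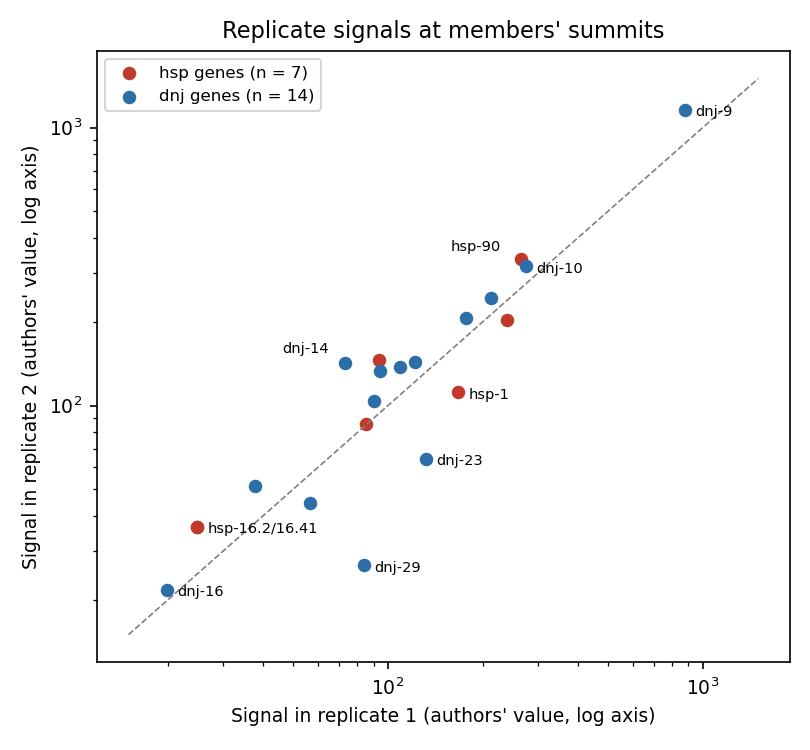
Signal in replicate 2 against signal in replicate 1 at the IDR summit of each bound member (log axes, the authors' values), for 7 hsp genes (red) and 14 dnj genes (blue). The dashed line marks equal signals; dnj-29, with 83.7 and 26.6, lies farthest from it.

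Motifs were counted within 100 bp of the 20 summits, on both strands, and set beside the 2124 IDR summits that lie in any promoter window. The heat shock dimer (GAANNTTC or its other arrangement TTCNNGAA) was present at 9 of the 20 member summits (45%) against 19.4%, at 5 of 6 hsp and 4 of 14 dnj summits. The trimer, which is either dimer followed by NN and a repeat of its leading unit and so contains both dimers, was present at 3 hsp summits, those of hsp-6, hsp-16.2 and hsp-110, and at 0 dnj summits, against 1.65% of promoter summits. In the hsp-110 window shown among the sequences, both dimer matches belong to the trimer.

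The E2F motif (TTCCCGC, the form TTCGCGC, the form TTGCCGC or the form TTGGCGC) was found at 2 member summits, dnj-9 and dnj-12, against 21.6% of promoter summits, and at 0 of the 6 hsp summits. At dnj-9 the match lay 26 bp from the summit, and at dnj-12 18 bp. The CHR motif (TTCGAA or TTTGAA), which DREAM binds through its MuvB part, was found at 11 of 20 (55%) against 55.2%, a share close to that of the other promoter summits. GAGAG was found at 7 of 20 (35%) against 46.3%. TGACGTG, a motif of the ER unfolded protein response, was found at dnj-28 and hsp-3 against 3.91%. A match describes letters in a window and is not a site, and the median GC content of the member windows, 39.5%, was near that of all IDR summits, 41.3%.

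**Figure D5:**
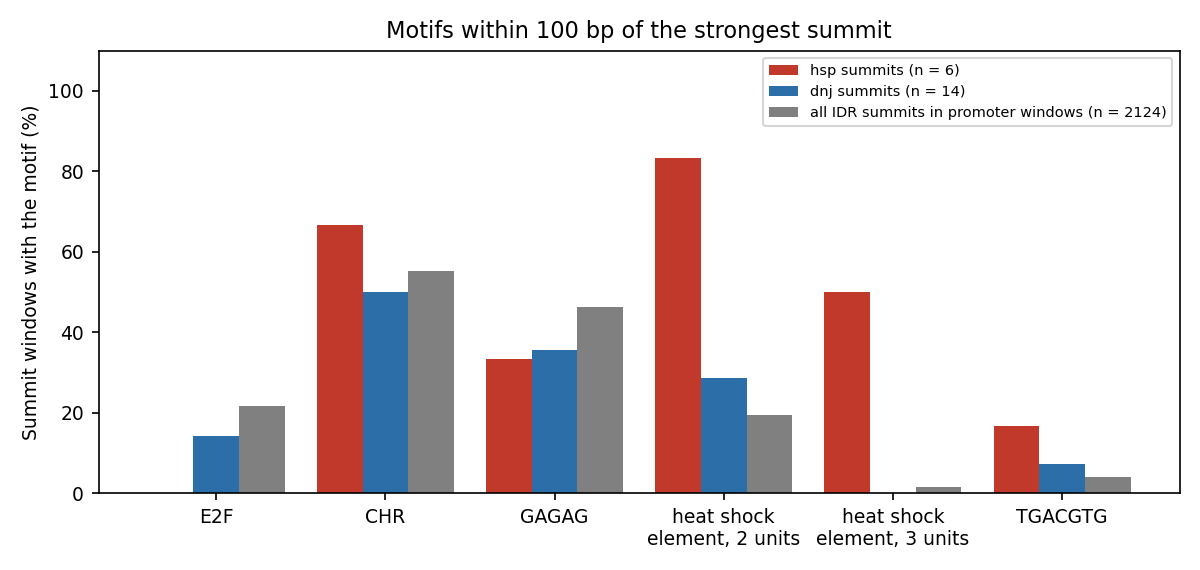
Share of summit windows, in percent, that hold each motif within 100 bp of the summit, for hsp summits (red, n = 6), dnj summits (blue, n = 14) and all IDR summits in promoter windows (grey, n = 2124). The heat shock bars are the highest of the hsp group against grey, and the E2F bar of the hsp group is at 0.

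The heat shock trimer was also counted in the 500 bp upstream of the outermost 5′ end of every gene, bound or not. This window can lie away from the summit. It was present in 13 of the 51 members (25.5%) against 3.25% of all genes, in 7 of 8 stress-induced and 4 of 10 constitutive hsp genes, and in 2 of 29 dnj genes, dnj-12 and dnj-13. Among members with the trimer, 8 were bound and 5 were not. These are 38.1% of the 21 bound and 16.7% of the 30 unbound members. The 8 include both hsp-16.2 and hsp-16.41, whose upstream windows share the gap between them. They also include hsp-1, hsp-90, dnj-12 and dnj-13, which had no trimer within 100 bp of their strongest summits. The dimer showed no such difference: it was present in 61.9% of bound members, 60% of unbound members and 48.3% of all genes. The 5 unbound members with the trimer were hsp-70 and the 4 duplicated hsp-16 genes, whose windows are repeated in the genome. The stress-induced gene without the trimer was hsp-4, which held TGACGTG. That motif was present in 7 of the 51 members against 4.27% of all genes.

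A list of 34 other chaperone-network genes was also scored. It was picked gene by gene, with earlier results of these data known, and leaves out others such as the chaperonin gene cct-1. Its share of bound genes is therefore a description and is not set against that of the members. Of the 34, 27 were bound (79.4%), against 13.5% of all genes, with a median signal of 193, and 10 shared their summit. The 5 highest were pfd-6 with 1170, sti-1 with 857, sip-1 with 664, pfd-5 with 598 and pfd-1 with 409. PFD-1, PFD-5 and PFD-6 are subunits of prefoldin, which hands actin and tubulin to the chaperonin, STI-1 links HSP70 with HSP90, and SIP-1 is a small heat shock protein of embryos. The summit of sip-1 is shared with sly-1. Its signal was 664, and that of the bound small heat shock pair among the members was 64.9. Among stress regulators, xbp-1 had 245, atfs-1 95.3 and hsb-1, an inhibitor of HSF-1, 86.8. The gene hsf-1 itself was not bound and had 18.6 in the pooled list. The 6 other unbound genes of the list were cnx-1, ddl-1, ddl-2, dve-1, pdi-3 and pfd-2.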

How the data were processed

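The authors deposited narrowPeak lists on ce11 and ce10 from tagged DPL-1 chromatin of 2 biological replicates. Those on ce10 were not used. Per the deposited file listings, relaxed lists (30000 rows each for replicate 1, replicate 2 and their pool) were derived from alignments with a control alignment, and the IDR list (3369 peaks) from these lists. Neither labels nor listings name the aligner or the peak caller (not given in the sources used here). Peak signal is the authors' deposited signal value, and the summit offset in bp is also theirs. The −log10 q values the authors deposited were not used for ranking. No read counts were used, so the depth is unknown.

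Summits were matched to Ensembl release 115 starts on WBcel235, the same assembly as ce11. A summit in several windows counted for each gene, and the strongest gave a gene its values. The top list of a replicate holds its 3369 strongest peaks. Replicate signals of bound members are those of the replicate summit nearest to the IDR summit. Python 3.11.15, pandas 2.3.3 and numpy 2.4.6 were used. Window assignment was tested on simulated data. The members, classes and lists were chosen with earlier results of these data known, so counts are descriptions without tests. Text names every bound or stress-induced member, near misses within 1.5 times of the lowest IDR signal, partners of the 10 strongest and the 5 strongest other chaperone genes. Other unbound members were named after their values were seen.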

Additional observations from a re-analysis of the deposited data

How the results depend on the processing

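Of 59 values under alternatives, 29 stayed within 1.5 times of the reported count or within the spread between replicates, and 30 moved. For medians that spread is the standard deviation of the values without each replicate, 13.1 (hsp) and 19.9 (dnj) for signal. Single replicate lists are on another signal scale than the pooled values. The signal medians without a replicate count among the moved values for that reason too. With the window cut to 200 bp upstream and 100 bp downstream, 3 hsp, 7 dnj and 1 constitutive gene were bound, with median signals of 64.9 (hsp) and 180 (dnj) and a median distance of -101.5 bp. Counting each summit for its nearest start only left 3 hsp, 9 dnj, 2 constitutive and 1 stress-induced gene, a dnj median of 195 and a distance of -121 bp. Genes with no other start within 1 kb gave 2 hsp, 2 dnj, 2 constitutive and 0 stress-induced genes, medians of 265 (hsp) and 1315 (dnj), and -186.5 bp. Keeping IDR peaks above the median signal gave 0 stress-induced genes and medians of 286 (hsp) and 246 (dnj). The window of 1000 bp upstream and the peak interval in place of the summit each moved the hsp median to 265. Both brought in hsp-60. Leaving out each replicate gave, on the scale of 1 replicate list, hsp medians from 112 to 130 and dnj medians from 109 to 137, and from 1 to 2 stress-induced genes. Without replicate 2, that 1 gene was hsp-70 in place of the hsp-16.2 and hsp-16.41 pair. Counting shared summits once, an alternative chosen after seeing the data, left 1 stress-induced gene. The narrow window and the nearest start drop far summits by construction, and keeping peaks above the median signal drops weak ones. Over all bound genes the median signal was 79.1 without replicate 1 and 73.0 without replicate 2, against 148 in the main setting. For the other moves the cause was not tested.

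No paired analysis was possible because there is 1 group. Depth is unknown, so a member without a summit was not detected as bound in these lists and is not shown to lack DPL-1.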
